A study of Mus musculus with 2 samples.

Results

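The BCL2 family of apoptosis regulators was examined in RNAseq of control and senescent AML12 cells, through 10 genes chosen by name from the 35275 genes of the count table. These were the guardians Bcl2, Bcl2l1 and Mcl1, the effectors Bax and Bak1, and the BH3-only genes Bbc3, Pmaip1, Bcl2l11, Bid and Bad. AML12 is a non-transformed hepatocyte line derived from a mouse carrying a human TGF-alpha transgene. The labels give both groups as liver cells of a male CD-1 mouse of 3 months. Control cells were untreated. Senescent cells received hydrogen peroxide for 1 h per day, first at 1 mM and then, on 5 further days, at 0.75 mM, with recovery in complete medium containing dexamethasone between exposures. RNA of 3 samples per group was pooled before sequencing, which left 1 library per group. With no replicates, no p-value could be given, and every ratio describes these libraries alone, not the conditions.

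Proteins of this family decide at the outer mitochondrial membrane whether a cell enters the intrinsic route of apoptosis. The effectors BAX and BAK can assemble into pores that release cytochrome c, guardians such as BCL-2, BCL-XL and MCL-1 hold them in check, and BH3-only proteins carry stress signals by binding guardians or effectors. Hepatocytes rely on BCL-XL and MCL-1 for survival, and in the liver BID also links death receptors to mitochondria. Resistance to apoptosis through guardians is a known trait of many senescent cells. Much of the control over these proteins acts through cleavage, phosphorylation, turnover and location, none of which an RNA count reports.

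The family is united by the BH3 segment, the short helix through which its members bind each other, so the DNA that encodes it is shown for the members on which the results turn. The segments were taken from GENCODE M21 transcripts on GRCm38, the same build as mm10, using for each gene its longest complete coding transcript. The translated transcripts were searched for a leucine followed by 3 residues of any kind, a glycine, alanine or serine, an aspartate, and then an aspartate, glutamate, glycine or lysine. All 10 members held this pattern, Pmaip1 with 2 matches and every other member with 1. The choices at each position are wide enough to admit these known members, and how often other genes match was not counted. Each line gives 42 bases of coding sequence, 5′ to 3′ on the strand of the gene, with the 18 bases that encode leucine to aspartate in capitals.
Bcl2, chr1:106712572-106712613, minus strand, exon 1: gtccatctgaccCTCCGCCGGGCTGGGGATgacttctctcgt
Bcl2l1, chr2:152829694-152829735, minus strand, exon 2: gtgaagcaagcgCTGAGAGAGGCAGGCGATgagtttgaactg
Mcl1, chr3:95659424-95659465, plus strand, exon 1: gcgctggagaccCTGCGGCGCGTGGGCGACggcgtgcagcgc
Bax, chr7:45465994-45466035, minus strand, exon 3: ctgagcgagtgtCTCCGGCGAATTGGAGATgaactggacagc
Bak1, chr17:27022528-27022569, minus strand, exon 4: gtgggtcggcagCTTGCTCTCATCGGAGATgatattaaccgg
Bbc3, chr7:16313761-16313802, plus strand, exon 3: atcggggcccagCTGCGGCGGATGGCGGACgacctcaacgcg
Bcl2l11, chr2:128147138-128147179, plus strand, exon 3: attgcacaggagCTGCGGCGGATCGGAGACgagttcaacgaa
Bid, chr6:120897286-120897327, minus strand, exon 4: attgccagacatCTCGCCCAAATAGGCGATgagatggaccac
Bad, chr19:6950780-6950821, plus strand, exon 3: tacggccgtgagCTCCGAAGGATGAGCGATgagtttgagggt
Within these 42 bases, Bbc3 and Bcl2l11 were the most alike pair, with 28 identical bases, and Bcl2 and Bid were among the least alike, with 15. Of the 5 complete coding transcripts of Bcl2l11, 4 held the pattern, so the gene-level count pools isoforms with and without it. Short and long isoforms of Bcl2l1 and Mcl1, which can act in opposite directions, were likewise pooled in 1 count per gene.

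All 10 members were detected in both libraries, with between 347 and 9218 reads each, and all passed the minimum of 10 reads that 14383 genes passed. The control library held 28021941 reads and the senescent library 25738075. Counts were scaled with TMM, which corrects library sizes for composition, and CPM below are the counts scaled in this way to a common depth. Log2 ratios were taken of senescent to control with a prior count of 1, and their 95% Clopper-Pearson interval covers counting error only. It treats every read as independent, which PCR copies are not, so it may be too narrow even for that error. A call of higher or lower needed a ratio past 1.5 in that direction, the threshold of the study's methods, and an interval that left out 0. None of the 10 members was called in either direction, against 8.31% of all tested genes, of which 2.71% were higher and 5.6% lower. With only 10 genes, none called is near that share. The members' log2 ratios ran from -0.50 for Bcl2l11 to 0.44 for Bcl2l1, with a median of -0.15, beside a median of -0.02 over all tested genes. Without regard to direction, the median log2 ratio was 0.30 for the members and 0.41 for all tested genes. Genes with few reads widen that background. Among the 11291 genes with at least 100 reads, a minimum that every member passed, this median was 0.35, and 141 were higher and 395 lower. The interval lay above 0 for 3 members, against 34.0% of all 14383 tested genes, and below 0 for 5, against 34.6%. Among the 11291 genes with at least 100 reads, it lay above 0 for 4504, below 0 for 4311, and held 0 for 2476. Genes with few reads have wider intervals, which lowers the shares over all tested genes. Together, 8 of 10 members had an interval without 0, against 68.6% of all genes, a share near the background. Among all tested genes, 58.9% had a log2 ratio smaller in size than 0.51, which took in every member. In place of TMM, scaling by total counts moved the median of all genes from -0.02 to -0.12 and the members' range to -0.61 to 0.33.

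**Figure D1:**
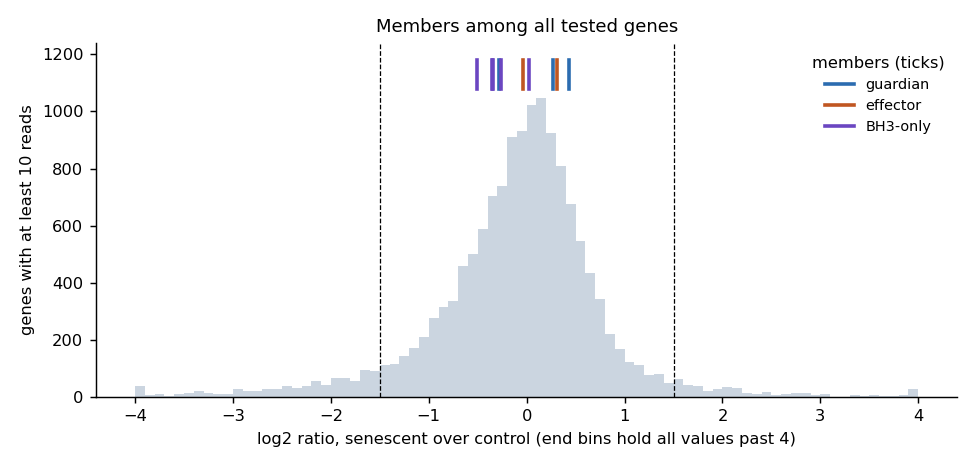
Histogram of the log2 ratio of senescent over control for all genes with at least 10 reads (vertical axis, number of genes), with the 10 members as ticks above it coloured by role and dashed lines at the threshold of 1.5. The members lie between -0.50 and 0.44, inside both dashed lines, with 4 of the 5 BH3-only genes left of 0.

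Among the guardians, Bcl2l1 and Mcl1 had log2 ratios above 0 and Bcl2, the least abundant member, had one below 0, all short of the threshold. Bcl2l1 encodes BCL-XL (ENSMUSG00000007659, chromosome 2 from 152780668 to 152831728, minus strand, in the GENCODE M21 annotation of GRCm38). It had 7989 reads (275 CPM) in control and 9218 (372 CPM) in senescent cells. This was the highest log2 ratio of the family, 0.44 (95% interval 0.39 to 0.48). Mcl1 encodes a guardian of short protein half-life (ENSMUSG00000038612, chromosome 3 from 95658788 to 95663176, plus strand). It had 5967 reads (205 CPM) in control and 6111 (246 CPM) in senescent cells, a log2 ratio of 0.26 (0.21 to 0.32). Bcl2, the founding member (ENSMUSG00000057329, chromosome 1 from 106538178 to 106714274, minus strand), had 494 reads in control and 347 in senescent cells. That is 17.0 and 14.0 CPM and a log2 ratio of -0.28 (-0.48 to -0.08). An antisense gene that covers 6.09% of the Bcl2 exons had only 3 control reads and 1 senescent read. Bcl2l2, which encodes BCL-W and is a further guardian outside the 10 genes, had 1604 and 1865 reads and a ratio on the log2 scale of 0.45 (0.35 to 0.54).

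The effectors differed from each other, with Bax near 0 and Bak1 above it, both short of the threshold. Bax (ENSMUSG00000003873, chromosome 7 from 45461697 to 45466898, minus strand) had 5826 reads (200 CPM) in control and 4842 (195 CPM) in senescent cells. Its log2 ratio of -0.04 had an interval that held 0, from -0.09 to 0.02, and total-count scaling moved the ratio to -0.14 with an interval below 0. A coding gene not listed in the count table, Gm45808, shares 12.2% of the Bax exon bases. Bak1 (ENSMUSG00000057789, chromosome 17 from 27019810 to 27029009, minus strand) rested on 2426 control reads (83.4 CPM) and 2571 senescent reads (104 CPM). Its log2 ratio was 0.31 (0.23 to 0.39). Ggnbp1, on the opposite strand, overlaps 18.2% of the Bak1 exons and had 153 control and 95 senescent reads. Bok, the third effector-like gene of the family and outside the 10 genes, was at a far lower level with 145 control and 337 senescent reads, 4.99 and 13.6 CPM. Its log2 ratio of 1.44 (1.16 to 1.74) was just short of the threshold.

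Of the BH3-only genes, 4 of 5 had an interval below 0, against 34.6% of all genes, and none had one above it, against 34.0%. Of the 11291 genes with at least 100 reads, 4311 had an interval below 0 and 4504 one above it. Bcl2l11 encodes BIM, an activator that binds every guardian (ENSMUSG00000027381, chromosome 2 from 128126038 to 128162547, plus strand). It had 1461 reads (50.2 CPM) in control and 878 (35.4 CPM) in the senescent library, the lowest log2 ratio of the family at -0.50 (-0.63 to -0.38). Bbc3 encodes PUMA, a direct p53 target (ENSMUSG00000002083, chromosome 7 from 16308393 to 16318205, plus strand). It had 1400 reads (48.1 CPM) in control and 935 (37.7 CPM) in senescent cells, a log2 ratio of -0.35 (-0.47 to -0.23). Pmaip1 encodes NOXA, which binds MCL-1 and is likewise induced by p53 (ENSMUSG00000024521, chromosome 18 from 66458533 to 66465565, plus strand). It went from 1802 reads (62.0 CPM) to 1285 (51.8 CPM), with a log2 ratio of -0.26 (-0.36 to -0.15). Bad, whose protein is held inactive when growth factor signalling phosphorylates it (ENSMUSG00000024959, chromosome 19 from 6941861 to 6951899, plus strand), had 2344 control and 1575 senescent reads, or 80.6 and 63.5 CPM. Its log2 ratio was -0.34 (-0.44 to -0.25). Gpr137 on the opposite strand overlaps 20.5% of the Bad exons and had 1302 and 957 reads, and without known strand its reads and those of Bad cannot be told apart there. Bid, whose protein is cut by caspase-8 (ENSMUSG00000004446, chromosome 6 from 120891930 to 120916853, minus strand), had 4833 reads (166 CPM) in control and 4177 (168 CPM) in senescent cells. Its log2 ratio of 0.02 (-0.04 to 0.08) could not be told from 0, and turned to -0.09 with total-count scaling and to -0.02 with upper-quartile scaling. Its exons share 17.7% of their bases with Bcl2l13 on the opposite strand, itself a family gene with 2834 and 2309 reads.

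**Figure D2:**
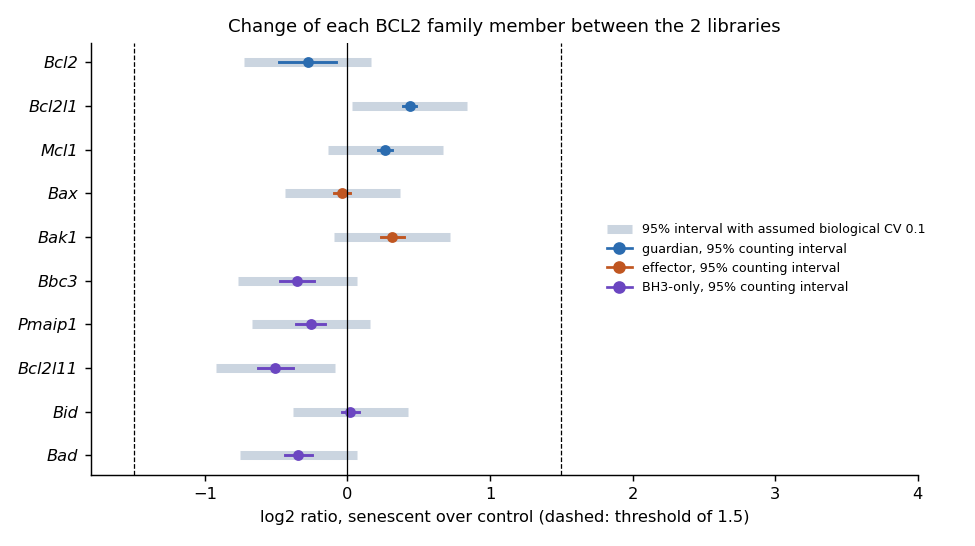
Log2 ratio of senescent over control for each member (horizontal axis), as points coloured by role with thin 95% counting intervals, wide grey bars for intervals with an assumed biological coefficient of variation of 0.1, and dashed lines at 1.5. Bcl2l1, at 0.44, and Bcl2l11, at -0.50, are the members whose grey bars leave out 0.

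The spread between cultures was not measured, so the intervals were also computed with a biological coefficient of variation that was assumed. At 0.1, the interval of Bcl2l1 ran from 0.03 to 0.84 and that of Bcl2l11 from -0.92 to -0.09, and those of the other 8 members held 0. At 0.2, all 10 held 0, with Bcl2l11 from -1.31 to 0.30 and Bcl2l1 from -0.36 to 1.24.

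To compare levels between genes, CPM were divided by the length of each gene's combined exons, as CPM per kb. Bax was the most abundant member in both libraries, at 127 in control and 124 in senescent cells. Mcl1 and Bcl2l1 followed in the control at 60.0 and 59.9, a pair that did not differ beyond counting error (ratio 1.002, interval 0.969 to 1.04). In the senescent library Bcl2l1 stood above Mcl1, at 81.0 against 72.1 (ratio 1.12, interval 1.09 to 1.16). Bid came next at 46.8 and 47.4, then Bak1 at 34.7 and 43.1, and Bad at 31.5 and 24.8. Pmaip1 and Bbc3 had nearly equal levels in the control, at 22.68 and 22.67, and in the senescent library the interval of their ratio still held 1 (0.982 to 1.16). Bcl2l11 stood at 6.26 and 4.41, and Bcl2 was lowest at 1.86 and 1.53. The length-scaled level of Bcl2 over that of Bcl2l1 was 0.0310 in control and 0.0189 in senescent cells. The order depends on the length used. With the longest transcript in place of combined exons, the near equality of Mcl1 and Bcl2l1 in control was lost, with Bcl2l1 at 1.55 times Bid and Bid at 1.15 times Mcl1 (interval 1.10 to 1.19). In senescent cells Bcl2l1 then stood at 2.01 times Mcl1 (1.94 to 2.07), and Mcl1 and Bid could not be told apart (ratio 1.03, interval 0.994 to 1.08). Bbc3 then lay above Pmaip1 in both libraries, at a ratio of 1.17 (1.09 to 1.25) in control and 1.09 (1.01 to 1.19) in senescent cells. Bax stayed highest and Bcl2l11 and Bcl2 lowest with either length.

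**Figure D3:**
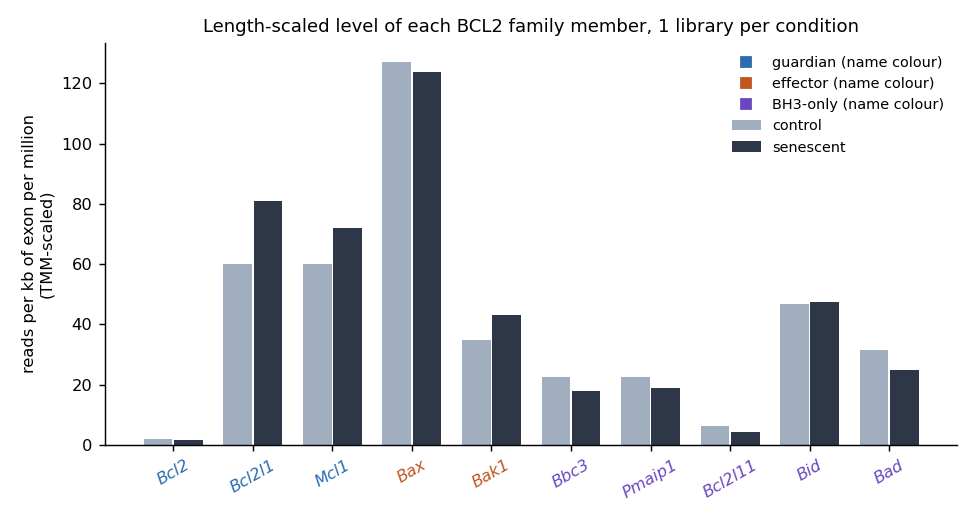
Bars of the length-scaled level of each member (vertical axis, CPM per kb of exon, from 0) in the control (grey) and senescent (dark) library, 1 library each and so without error bars. Bax is tallest in both libraries, at 127 and 124, and Bcl2 is near the axis at 1.86 and 1.53.

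Ratios between members within a library do not depend on the scaling between libraries, and these moved toward the guardians Bcl2l1 and Mcl1. Their intervals are normal intervals on the log scale and cover counting error only. The ratio of Bcl2l1 to Bcl2l11, on length-scaled levels, was 9.57 in control and 18.4 in senescent cells, a log2 change of 0.94 (0.81 to 1.07). Against Bbc3 the ratio of Bcl2l1 went from 2.64 to 4.57 (log2 change 0.79, interval 0.66 to 0.92) and against Bad from 1.90 to 3.26 (0.78, interval 0.68 to 0.88). Against the effector Bax it went from 0.471 to 0.654 (0.47, interval 0.40 to 0.54). The pair of MCL-1 and its BH3-only partner NOXA moved the same way, with a ratio of Mcl1 to Pmaip1 of 2.65 in control and 3.80 in senescent cells (0.52, interval 0.41 to 0.64). Mcl1 and Bak1, whose proteins bind each other, kept a ratio of 1.73 and 1.67, and the interval of the change held 0 (-0.14 to 0.05). Bcl2 moved otherwise, and its ratio to Bax went from 0.0146 to 0.0123 (-0.24, interval -0.45 to -0.04). Its ratios to Bak1 and Bid also fell, with log2 changes of -0.59 and -0.30 and intervals below 0. Those to Bbc3, Pmaip1, Bcl2l11 and Bad changed by 0.07, -0.02, 0.23 and 0.06, with intervals that held 0.

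**Figure D4:**
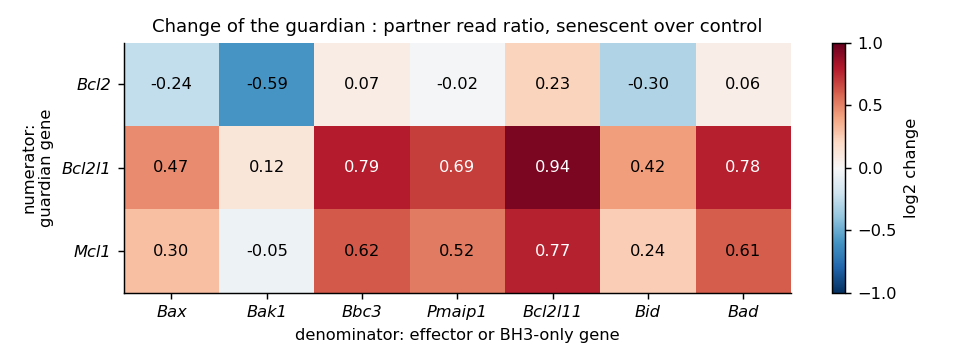
Log2 change, senescent over control, of the read ratio of each guardian (rows) to each effector or BH3-only gene (columns), with the value in each cell and red for a rise of the guardian over its partner. The Bcl2l1 row is above 0 throughout, from 0.12 against Bak1 to 0.94 against Bcl2l11, and the Bcl2 row has values on both sides of 0.

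Summed over each role, the guardians had 122 CPM per kb in control and 155 in senescent cells, the effectors 162 and 167, and the BH3-only members 130 and 113. The summed level of effectors over guardians went from 1.33 to 1.08, a log2 change of -0.30 (-0.36 to -0.24). Without length correction this ratio stood below 1 in both libraries, at 0.571 and 0.473, so whether effectors or guardians were the more abundant depends on the length used. That of the BH3-only members over guardians went from 1.07 to 0.733, a log2 change of -0.54 (-0.59 to -0.49). These sums treat each transcript as equal and say nothing of protein amounts.

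The family genes with the largest changes lay outside the 10 members. Of 15 further family genes listed, 9 had at least 10 reads, and their median was -0.13. Past the threshold, 1 was higher, against 2.71% of all tested genes, and 2 were lower, against 5.6%. Bmf, which encodes a BH3-only protein released from the cytoskeleton when cells detach (chromosome 2 from 118528757 to 118549687), fell from 5945 reads (204 CPM) in the control to 498 (20.1 CPM) in senescent cells, a log2 ratio of -3.35 (-3.48 to -3.22). Per length, Bmf made up 23.0% of the summed BH3-only level in control and 3.26% in the senescent library. With Bmf added, which was chosen for this after its values were seen, BH3-only over guardians went from 1.39 to 0.758. Bnip3, a hypoxia-induced gene of mitophagy with an atypical BH3 segment, fell from 3933 to 659 reads (-2.35, interval -2.47 to -2.23), and its relative Bnip3l went from 6654 to 4030 (-0.49, interval -0.55 to -0.44). Bcl2l14 was called higher on only 3 control and 14 senescent reads, at 2.10 on the log2 scale (0.61 to 4.89) that a prior count of 5 brought to 1.38. Bcl2l12, Bcl2l13 and Bcl2l15 had intervals that held 0, and 4 of the 15, namely Bcl2a1a, Bcl2a1b, Bcl2a1d and Hrk, had 0 reads, which allows up to 0.103 CPM in control and 0.121 in the senescent library.

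Downstream of the pores, none of the 14 genes of the apoptosome and caspases passed the threshold, against 8.31% of all tested genes. Their median log2 ratio was -0.16. Apaf1, the scaffold that binds cytochrome c, had 1171 control and 1904 senescent reads (0.93, interval 0.83 to 1.04). The initiators had 0.67 (0.59 to 0.75) for Casp8 and 0.43 (0.30 to 0.57) for Casp9. Cytochrome c itself, Cycs, had -0.23 (-0.29 to -0.17) and the nuclease Endog -0.83 (-1.04 to -0.62). Among 5 inhibitors of apoptosis, 1 was lower past the threshold, against 5.6% of all tested genes. Birc3, an NF-κB target encoding cIAP2, fell from 1178 to 304 reads (-1.72, interval -1.91 to -1.54). Its neighbour Birc2 had 1540 and 652 reads (-1.01, interval -1.14 to -0.88) and Xiap, a direct caspase inhibitor, had 8538 and 6043 (-0.27, interval -0.32 to -0.22).

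Upstream, the 11 genes of death receptor signalling held 8 with at least 10 reads and none past the threshold, against 8.31% of all tested genes. The receptor genes lay on opposite sides of 0, with 663 and 222 reads for Fas (-1.35, interval -1.57 to -1.13) and 1025 and 1919 for Tnfrsf10b, which encodes the TRAIL receptor (1.13, interval 1.02 to 1.25). Cflar, the inhibitor of caspase-8, had a log2 ratio of 0.42 (0.35 to 0.49). Of 7 partners at the mitochondrial membranes, none passed the threshold, against 8.31% of all tested genes, with a median of 0.21. Vdac2, which holds BAK at the membrane, was at the top of this list with 6892 and 10422 reads (0.83, interval 0.78 to 0.87). The fission gene Dnm1l had 0.51 (0.44 to 0.59). None of the 5 genes of MCL-1 turnover passed the threshold either, against the same 8.31%, and with so few genes none is near that share. Here the ligase genes Huwe1 and Fbxw7 had 0.31 (0.27 to 0.35) and 0.47 (0.30 to 0.66), the deubiquitinase gene Usp9x had 0.31 (0.27 to 0.34), and Btrc had -0.29 (-0.44 to -0.15).

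**Figure D5:**
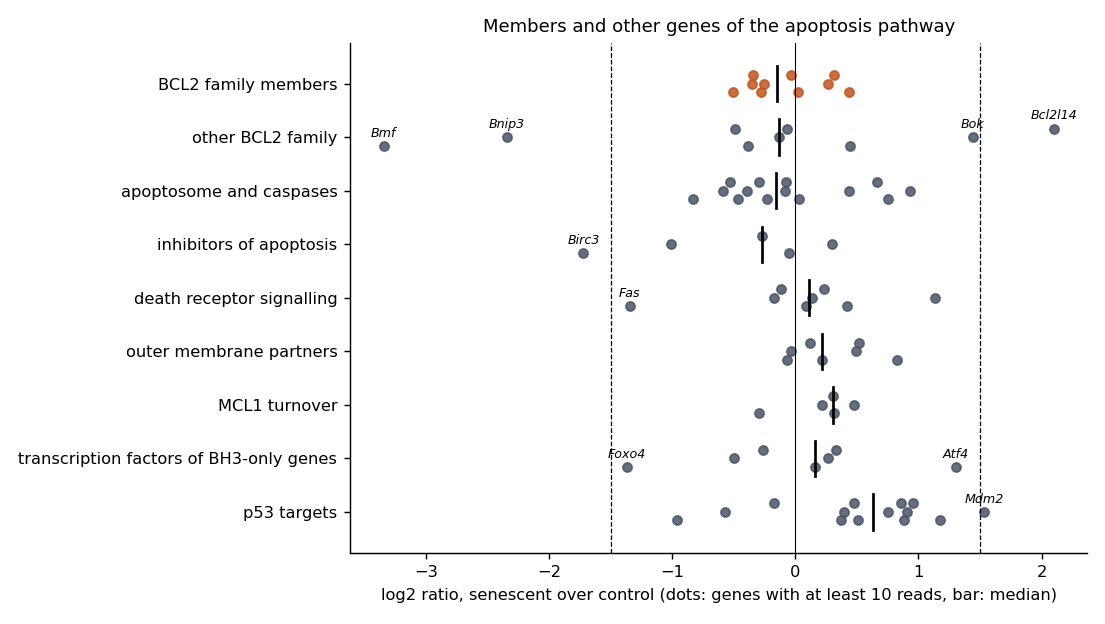
Log2 ratio of senescent over control (horizontal axis) for the 10 members (top row) and for the genes with at least 10 reads of 8 lists of the apoptosis pathway, with a bar at each median and dashed lines at 1.5. Bmf at -3.35, Bnip3 at -2.35, Birc3 at -1.72, Bcl2l14 at 2.10 and Mdm2 at 1.53 lie outside the dashed lines.

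The transcription factors that are known to act on BH3-only genes differed in direction. None of the 7 with at least 10 reads passed the threshold, against 8.31% of all tested genes, a share near none for so few genes. Trp53 had 5364 and 5494 reads (0.26, interval 0.21 to 0.32), and Trp63 and Trp73 had 0 reads. Of the FOXO genes, which activate Bcl2l11 and Bbc3, Foxo4 had 2149 and 708 reads (-1.37), Foxo1 had -0.50 (-0.68 to -0.32) and Foxo3 -0.27 (-0.36 to -0.17). Atf4, a stress factor upstream of Bbc3 and Pmaip1, had 4820 and 10151 reads (1.30, interval 1.25 to 1.35), and its partner Ddit3 had 0.33 (0.19 to 0.46). Of 14 p53 targets outside the family, 11 had an interval above 0, against 34.0% of all genes, and 3 below, against 34.6%. Their median was 0.63, and 1 was higher past the threshold, against 2.71% of all genes. Mdm2, the ligase for p53, had 3812 and 9417 reads (1.53, interval 1.48 to 1.59), and stood below the threshold at 1.43 when scaled by totals and at 1.495 when scaled by upper quartiles. Cdkn1a, the p21 cell cycle inhibitor, had 6182 and 9869 (0.90, interval 0.86 to 0.95). The p53-responsive members Bbc3, Pmaip1 and Bax stood at -0.35, -0.26 and -0.04 beside these.

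Promoters were searched for motifs of these factors because members such as Bcl2l11, Bbc3 and Bax are known targets of them. RefSeq windows on GRCm38.p6, from 250 bases before to 50 bases after a start, were at hand for 9 of the 10 members, with 15 windows in all, and for Pmaip1 none was used. On both strands, GTAAACA, the FOXO core, was found for Bbc3 and Bcl2l11, in 2 of the 15 windows, against 3.65% of all 32851 windows. A match to the p53 consensus decamer was found for Bax in 1 window, against 8.36% of all. TGATGNAA, the ATF4 element, was found in none of the 15, against 3.97%, and ACGTG, an E-box and hypoxia core, in 2, for Bax and Bbc3, against 19.6%. The 250 bases before the start are shown for the windows with a FOXO or p53 match, 5′ to 3′ on the strand of the gene, with each match in these bases in capitals.
Bcl2l11, chr2:128125788-128126037, plus strand: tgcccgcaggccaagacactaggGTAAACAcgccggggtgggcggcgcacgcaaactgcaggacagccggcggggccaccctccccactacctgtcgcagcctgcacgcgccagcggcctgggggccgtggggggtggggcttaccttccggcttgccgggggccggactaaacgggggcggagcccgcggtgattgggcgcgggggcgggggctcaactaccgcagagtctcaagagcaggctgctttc
Bbc3, chr7:16310011-16310260, plus strand: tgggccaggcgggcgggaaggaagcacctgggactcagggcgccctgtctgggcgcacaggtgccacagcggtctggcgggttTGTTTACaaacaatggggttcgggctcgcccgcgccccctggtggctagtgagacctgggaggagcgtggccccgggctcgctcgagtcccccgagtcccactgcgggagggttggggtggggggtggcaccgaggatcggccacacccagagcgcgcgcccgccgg
Bax, chr7:45466899-45467148, minus strand: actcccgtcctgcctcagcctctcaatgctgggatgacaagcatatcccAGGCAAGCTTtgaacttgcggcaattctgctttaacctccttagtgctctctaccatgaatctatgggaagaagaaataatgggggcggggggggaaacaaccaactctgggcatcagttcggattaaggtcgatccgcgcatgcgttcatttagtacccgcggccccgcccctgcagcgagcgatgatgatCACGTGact
The capitals mark GTAAACA in Bcl2l11 and its reverse complement in Bbc3, and in Bax the p53 decamer and, near the end, CACGTG, which holds ACGTG on both strands. The Bbc3 window belongs to 1 of 3 RefSeq starts of that gene, and its ACGTG match lies in another of them. A match is a description of letters and was not tested as a binding site.

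The identity of the cells was checked with the hepatocyte, cholangiocyte, macrophage, stellate cell and endothelial markers. All 8 hepatocyte markers were detected, and Krt8, Krt18, Hnf4a, Ttr and Alb were abundant in the control, with Alb falling from 32076 to 2917 reads (-3.23, interval -3.28 to -3.17) and Apoa1 from 2026 to 197 (-3.13, interval -3.35 to -2.92). Krt18 (0.82, interval 0.80 to 0.84), Krt8 (0.51, interval 0.50 to 0.52) and Hnf4a (0.14, interval 0.10 to 0.19) had intervals above 0, and Ttr had -0.91 (-0.95 to -0.88). Of the 8 markers, 3 had an interval above 0, against 34.0% of all tested genes, and 3 below, against 34.6%. Their summed level was 7753 CPM in control and 9157 in senescent cells. Most of it came from Krt8 (4106 and 5838 CPM) and Krt18 (1393 and 2457 CPM), so the sum mainly follows these keratin genes. Alb had 1103 and 118 CPM and Ttr 796 and 423. Afp and Tf were sparse, with 75 and 26 control reads. Of 5 cholangiocyte markers, Krt19, Krt7, Sox9 and Spp1 were expressed as well, with a summed level of 1897 CPM in control and 1421 in senescent cells, while Epcam had 0 and 1 reads. Log2 ratios were -1.43 for Krt7, -1.04 for Spp1 and 0.54 for Sox9, so these did not move together. That of Krt19 was -0.03, with an interval that held 0. The 6 macrophage markers summed to 2.65 and 6.29 CPM with Adgre1 and Clec4f at 0 reads and Csf1r (15 and 40 reads, 1.58) and Ptprc (27 and 76 reads, 1.68) past the threshold, the 6 stellate cell and fibroblast markers to 0.928 and 0.202 CPM with Col1a2 and Acta2 at 0 and Col1a1 past the threshold on 21 and 1 reads (-3.29, interval -9.53 to -1.53), and the 4 endothelial markers to 0.172 and 0.484 CPM. The part of these shifts in the ratios above was not tested. Among senescence genes, Cdkn2a had 437 and 149 reads (-1.32, interval -1.60 to -1.05) and the proliferation marker Mki67 3322 and 1635 (-0.79, interval -0.88 to -0.71), with Lmnb1 at -0.30 and Cdkn2b at 0.46. Fewer cells of a type and less RNA per cell cannot be told apart in such bulk libraries.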

How the data were processed

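RNAseq was measured in 1 library of control and 1 library of senescent AML12 cells, each from the pooled RNA of 3 samples. The authors deposited un-normalized counts of reads per gene by Ensembl identifier. The submitters' processing notes name CASAVA, STAR, DESeq2, edgeR and mm10, with no role, and the counter, annotation and strand setting are not given in the sources used here, so reads of overlapping genes and of isoforms may be split otherwise. Columns were assigned to samples by the initials of the sample titles.

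Of 35275 genes, 34490 were paired with a GENCODE M21 symbol. All 114 listed genes were found, Tf as Trf through a RefSeq synonym. Counts were scaled with edgeR 4.0.16 (TMM) in R 4.3.3, and for alternatives with DESeq2 1.42.0 size factors, upper quartiles and totals. Ratios and intervals were computed in Python 3.11.15 with scipy 1.17.1 and pandas 2.3.3, plots with matplotlib 3.10.9, and shared sequence (at least 95% identity over 100 bases) with blastn 2.17.0. This search found, outside each member itself, only genes that overlap it. The prior count was 1, the minimum 10 reads, the threshold 1.5 and the floor 3 reads. Neither a quasi-likelihood nor a DESeq2 test could be used with 1 library per group, and no p-value was computed. The method was run on simulated counts that held counting error only, with planted changes far larger than those of the members. It therefore says nothing of the spread between cultures or of small ratios. The members, lists, threshold and alternatives were chosen with earlier results of these data known. All members could be named, and of each list every gene past the threshold and otherwise up to 4 highest and 2 lowest with at least 100 reads. Other genes named with values, such as Bnip3l, Bcl2l2, Casp9, Foxo3 and Trp53, were added after their values were seen. The assumed coefficients of variation of 0.1 and 0.2 were also added after seeing the data. Some genes of the lists are not reported here.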

Additional observations from a re-analysis of the deposited data

How the results depend on the processing

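No member passed the threshold in either direction with upper-quartile, DESeq2 or total-count scaling, with a minimum of 1 or 100 reads, with a prior count of 5 or below 1, or with a threshold of 1 or 2. Bid alone changed sign among the members, with total-count and upper-quartile scaling. Of 69 tested genes of the apoptosis lists, 5 passed the threshold, near the 8.31% of all tested genes. With a threshold of 1, 12 passed, against 15.1% of all tested genes, and with a threshold of 2, 3 passed. The number was 4 with total-count or upper-quartile scaling, with at least 100 reads, or with a prior count of 5. Over all genes, 390 were higher and 805 lower, against 732 and 1435 with a threshold of 1, 219 and 460 with a threshold of 2, and 141 and 395 with at least 100 reads. A prior count of 5 left 259 higher and 602 lower. The minimum and the threshold let fewer or more genes through by construction, and a larger prior count shrinks the ratios of genes with few reads. With the longest transcript in place of combined exons, the log2 change of effectors over guardians was -0.34, and with no length correction -0.27, where the ratio itself was 0.571 in control and 0.473 in senescent cells. No paired analysis was possible because each group has 1 library, and for the same reason no replicate could be left out. Counting error is small for every member, and the spread between cultures, which was not measured, limits what can be said of log2 ratios of this size.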
